A study of Ovis aries with 15 samples.

Results

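The circadian clock genes of the fetal sheep kidney cortex were taken from the arrays by gene name. The names sought were CLOCK, BMAL1 (also ARNTL), PER1, PER2, PER3, CRY1, CRY2, NPAS2, NR1D1 and DBP, which make 10 genes. Of these, 4 genes carried their name on the array: CLOCK and DBP with 1 probe each, and PER2 and CRY1 with 2 probes each. These 4 are among 899 genes named on the array, and the 6 probes are among 15008 that are not controls. All 6 passed the filter on dim probes that left 12927 probes for testing. A further 4 probes were described on the array as BMAL1, PER2 and PER3 (2 probes) without carrying the gene name. They were found after the values had been seen and are given apart. PER1, CRY2, NPAS2 and NR1D1 were not analysed here.

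Kidney cortex RNA came from 15 fetal sheep carrying indwelling catheters, studied near 125 d of gestation, with 1 single-colour Agilent array per fetus. Hypoxia with ketamine had 4 fetuses, hypoxia with saline vehicle 4, normoxia with ketamine 4 and normoxia with saline vehicle 3. The ewe was ventilated for 30 min to give hypoxia or normoxia, ketamine (3 mg/kg), an anaesthetic acting as an antagonist of NMDA receptors, or saline went into a vein of the fetus 10 min before, and cortex was taken 24 h after the exposure began. All groups therefore shared surgery, catheters and maternal ventilation. The hour of the day at which each cortex was taken is not given in the sources used here, so a difference in clock phase and a difference in level cannot be told apart. In whole cortex, fewer cells of a type and less RNA per cell cannot be told apart either.

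The clock is a loop of transcription and feedback that most cells carry. CLOCK and BMAL1 pair through their PAS domains and switch on genes that hold an E-box, among them the PER and CRY genes, whose proteins return to the nucleus and repress that pair. DBP is an output factor whose gene is switched on by the pair and which passes the rhythm on to further genes. In the adult kidney the clock times sodium and water transport, and glucocorticoids are among the signals that set it.

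The probe sequences are shown because they decide which transcript each value reports, and because PER2 and CRY1 each rest on a pair of overlapping probes. Capitals mark the bases that a probe shares with the other probe of its gene. The array's annotation places no probe on the genome, so no position is given. The sheep RefSeq table (ARS-UI_Ramb_v3.0) held the transcript records of the CLOCK, CRY1 and DBP probes (4 of 6), and the PER2 probes come from an expressed sequence tag.
CLOCK, A_70_P002771: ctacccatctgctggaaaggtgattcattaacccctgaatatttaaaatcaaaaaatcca
PER2, A_70_P026806: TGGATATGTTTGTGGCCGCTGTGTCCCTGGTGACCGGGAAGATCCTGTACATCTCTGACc
PER2, A_70_P026807: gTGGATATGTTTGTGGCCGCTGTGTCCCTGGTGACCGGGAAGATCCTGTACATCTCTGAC
CRY1, A_70_P002776: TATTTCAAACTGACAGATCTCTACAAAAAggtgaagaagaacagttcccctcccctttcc
CRY1, A_70_P002777: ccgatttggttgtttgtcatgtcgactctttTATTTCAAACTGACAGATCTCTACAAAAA
DBP, A_70_P064061: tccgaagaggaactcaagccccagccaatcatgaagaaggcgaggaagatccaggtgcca

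The PER2 probes share 59 of their 60 bases and are close to being 1 measurement made at 2 spots. The CRY1 probes share 29 of 60 bases, with starts at bases 795 and 764 of the transcript record. G and C make up 35.0% of the CLOCK probe and 55.0% of each PER2 probe and of the DBP probe.

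Each array's 75th percentile of signal fell in the range 1064 to 1425, and the share of probes well above background in the range 75.6% to 85.2%. All values below are log2 signal minus the log2 of that percentile (log2 level), and the number of arrays limits their precision. A probe is said to rise or fall where limma's unadjusted p is at most 0.05, the threshold named by the submitters. All 6 clock probes were well above background on all 15 arrays and none was saturated. Of the kidney genes used to check the tissue, SLC34A1, AQP1 and SLC4A4 of the proximal tubule, AQP2 and AQP3 of the collecting duct and WT1 of podocytes were well above background on all 15 arrays. Of the genes that mark the thick ascending limb and distal tubule, 0 of 6 were named on the array.

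CLOCK, the partner of BMAL1 in the activating limb, was lowest in fetuses that had received both hypoxia and ketamine. Its log2 levels were -5.24, -4.82, -5.04 and -5.25 in hypoxia with ketamine. They were -4.35, -4.76, -4.83 and -4.76 in hypoxia with vehicle. They were -4.61, -4.41, -4.23 and -4.73 in normoxia with ketamine, and -4.43, -4.36 and -4.35 in normoxia with vehicle. All 4 fetuses with hypoxia and ketamine lay below all 4 with normoxia and ketamine, and 1 of them, at -4.82, lay just above the lowest fetus with hypoxia and vehicle. The 3 normoxic vehicle fetuses lay within 0.08 of each other on this scale, and 1 hypoxic vehicle fetus, replicate 1, lay among the normoxic values.

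**Figure D1:**
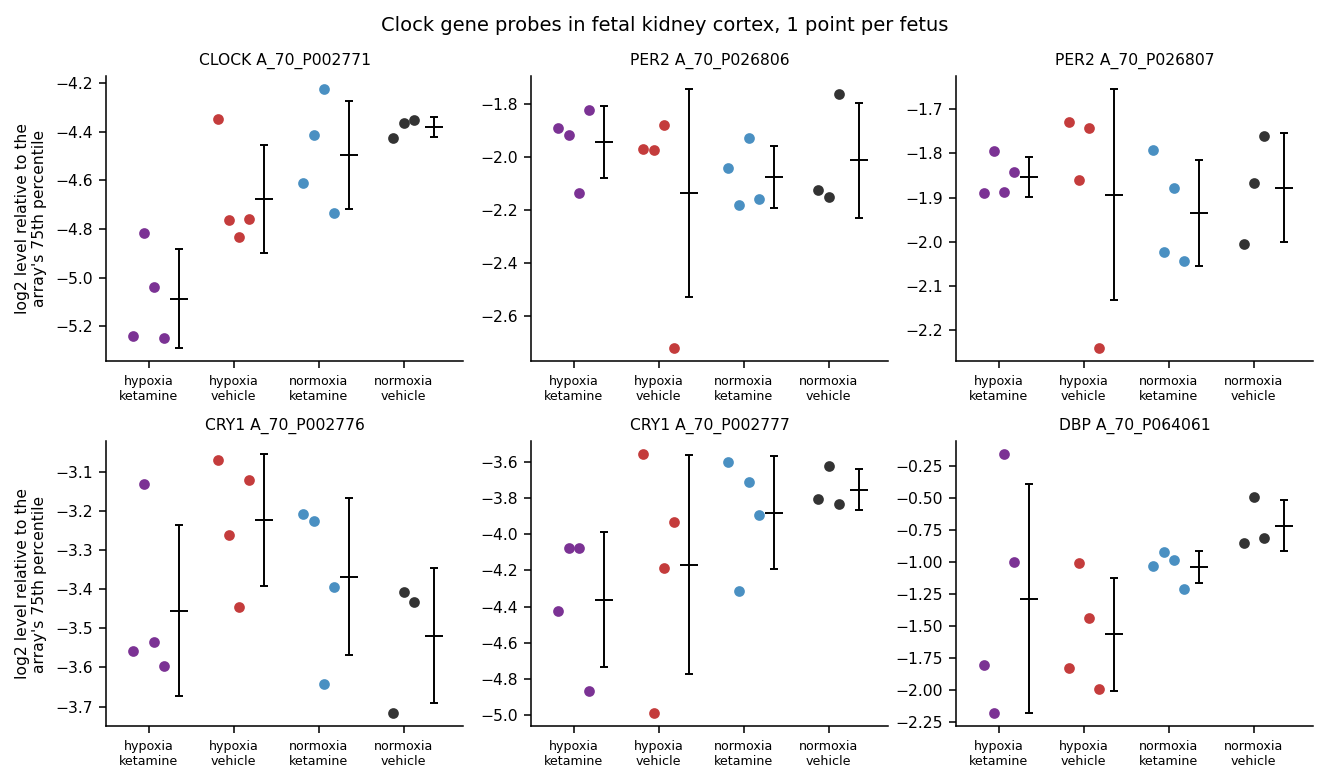
Log2 level of the 6 clock probes relative to each array's 75th percentile, with 1 point per fetus and, beside the points, the group mean and SD (n = 4, 4, 4 and 3), on a scale of its own in each panel. CLOCK runs from -5.25 to -4.82 in hypoxia with ketamine, below every normoxic ketamine fetus, while the PER2 groups overlap.

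The groups ranked from hypoxia with ketamine, at a mean log2 level of -5.09 ± 0.20 (SD, n = 4), through hypoxia with vehicle at -4.68 ± 0.22 (n = 4) and normoxia with ketamine at -4.50 ± 0.22 (n = 4), to normoxia with vehicle at -4.38 ± 0.04 (n = 3). The ranges of all 3 pairs of neighbours in this order overlapped, that of hypoxia with ketamine and hypoxia with vehicle by 1 fetus.

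Under ketamine, CLOCK fell with hypoxia by 0.59 on the log2 scale (SE 0.14, 95% interval -0.90 to -0.28), to 0.66 times the normoxic level. The limma p was 0.0012, and 0.251 after Benjamini-Hochberg adjustment over all probes. An exact two-sided permutation test over the 8 fetuses gave p = 0.0286, the smallest it can give. Among vehicle fetuses the difference was -0.29 (SE 0.16, 95% interval -0.63 to 0.04), with a limma p of 0.0813. It passed the threshold only when the hypoxic vehicle replicate 1 was left out (-0.40, limma p of 0.019). The 2 hypoxia contrasts differed by -0.30 (SE 0.21, 95% interval -0.75 to 0.16) in the interaction term, with a limma p of 0.188, so a larger effect under ketamine was not established. Averaged over vehicle and ketamine, CLOCK fell with hypoxia by 0.44 (SE 0.11, limma p of 0.0011, adjusted p = 0.0524), and the exact permutation test within treatment gave p = 0.0041. Among 12927 probes, 207 passed an adjusted p of 0.05 for this average effect of hypoxia (1.60%), and CLOCK was just outside.

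Under hypoxia, CLOCK fell with ketamine by 0.41 (SE 0.14, 95% interval -0.72 to -0.10), with a limma p of 0.0138, an adjusted p of 0.80 and an exact permutation p of 0.0571. Without hypoxic vehicle replicate 1 this difference was -0.30, with a limma p of 0.053. In normoxia the difference was -0.11 (SE 0.16, 95% interval -0.45 to 0.22), with a limma p of 0.478. Averaged over hypoxia and normoxia, CLOCK fell with ketamine by 0.26 (SE 0.11, limma p of 0.0283, adjusted p = 0.922), a call that was lost in 7 of the 15 fits that each left out 1 array.

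The CLOCK signal is dim, between 31.1 and 69.2 units of processed signal. The dimmest probe still well above background had 18.7 units in hypoxia with ketamine replicate 4, and 6.97 to 10.9 on the other arrays. The CLOCK value therefore leans on the background correction. Hypoxia with ketamine replicate 4 also had the lowest share of probes well above background (75.6%) and the lowest CLOCK value (-5.25). With normexp on the raw spot signals, the CLOCK difference between hypoxia and normoxia under ketamine was 0.08, with a limma p of 0.759. Both normexp settings add an offset of 50 units, which by itself narrows log2 differences of so dim a probe. The sizes of CLOCK differences under normexp are therefore not on the scale of the main values. That setting put hypoxia with ketamine replicate 3 at -2.46 and the other 3 arrays of the group between -3.74 and -3.63. On that array the highest local background was 3043 units against a median of 65.0, and normexp lifted its lower quartile of log2 levels to -2.51, where the other arrays lay between -3.95 and -3.27. The array next to it in this respect was normoxia with vehicle replicate 2, with a highest local background of 1272 units and a CLOCK value of -3.00, against -3.54 once the outlying backgrounds were replaced. With such outlying local backgrounds replaced by the array's median, a setting chosen after this was seen, replicate 3 lay at -3.74 and CLOCK fell by 0.24 under ketamine (limma p of 0.049). The average effect of hypoxia was then -0.16 (limma p of 0.073), and the difference in vehicle fetuses -0.078 (limma p of 0.530).

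**Figure D2:**
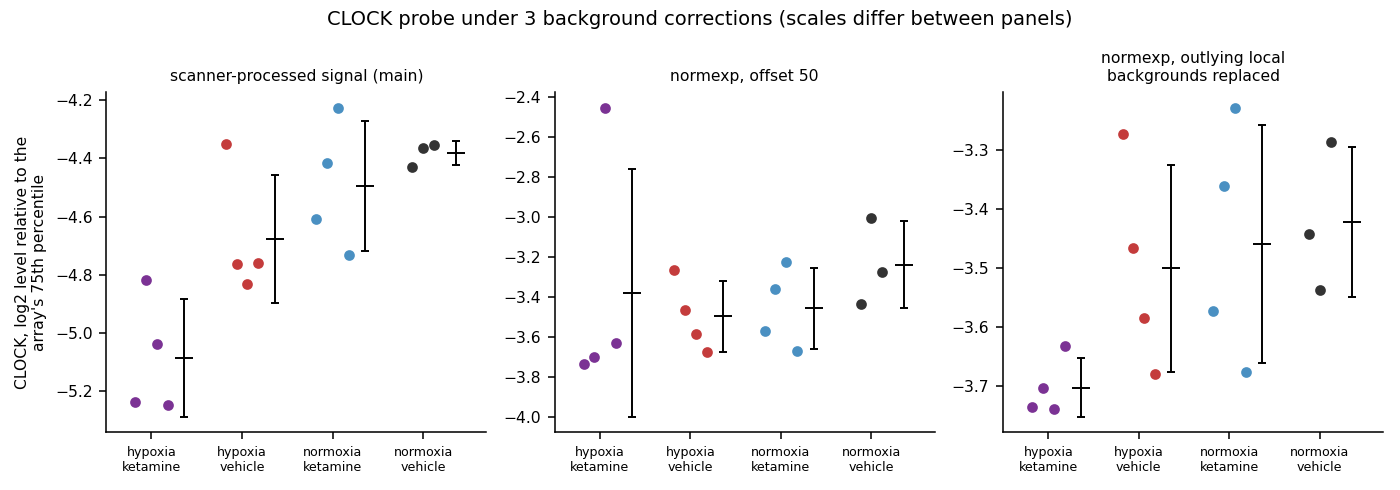
Log2 level of the CLOCK probe under 3 background corrections, with 1 point per fetus and the group mean and SD beside the points, on a scale of its own in each panel. Under normexp as usually run, 1 hypoxic ketamine fetus sits at -2.46, and at -3.74 once outlying local backgrounds are replaced. Both normexp panels include an offset of 50 units, which narrows the differences.

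The arrays lay on 2 slides that both held every group. CLOCK under ketamine differed with hypoxia by -0.52 within slide 1 (limma p of 0.049) and by -0.66 within slide 2 (limma p of 0.054), with 2 arrays a group in each. The submitters' own normalized table gave -0.38 (limma p of 0.008).

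DBP, the output factor, spread widely in the hypoxic groups and little in the normoxic ones. Its log2 levels were -1.81, -2.18, -0.16 and -1.0 in hypoxia with ketamine and -1.83, -1.01, -1.44 and -1.99 in hypoxia with vehicle. They were -1.03, -0.92, -0.98 and -1.21 in normoxia with ketamine and -0.85, -0.49 and -0.81 in normoxia with vehicle. Every hypoxic vehicle fetus lay below every normoxic vehicle fetus, and under ketamine 1 hypoxic fetus, replicate 3, was the highest of all 15. The SD was 0.90 in hypoxia with ketamine and 0.44 in hypoxia with vehicle, against 0.13 in normoxia with ketamine and 0.20 in normoxia with vehicle.

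Among vehicle fetuses DBP fell with hypoxia by 0.85 on the log2 scale (SE 0.38, 95% interval -1.66 to -0.04), to 0.56 times the normoxic level. The limma p was 0.0417 and the adjusted p 0.291, and the exact permutation p was 0.0571, the smallest that 4 fetuses against 3 allow. The call was lost in 9 of the 15 fits that each left out 1 array, over which the difference ran from -1.03 to -0.71. Under ketamine the difference with hypoxia was -0.25 (SE 0.35, 95% interval -1.0 to 0.50), with a limma p of 0.486, and without the high fetus it was -0.63 (limma p of 0.040). The average effect of hypoxia was -0.55 (SE 0.26, limma p of 0.0514, exact permutation p of 0.0661). Without the high fetus it was -0.74 (limma p of 0.002). It also passed the threshold without hypoxic vehicle replicate 2 (-0.64) or hypoxic ketamine replicate 4 (-0.60). That makes 3 of the 15 fits that each left out 1 array. These fetuses, the high one included, were singled out after the values were seen, so no fall of DBP is read from the fits without them. The interaction was 0.60 (95% interval -0.51 to 1.70), with a limma p of 0.264.

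With ketamine, DBP differed by 0.28 under hypoxia (95% interval -0.47 to 1.03; limma p of 0.437) and by -0.32 in normoxia (95% interval -1.13 to 0.49; limma p of 0.413). In normoxia the ketamine fetuses all lay below the vehicle fetuses, an order found in this direction for 4.60% of all probes. With only those 2 groups in the fit, which leaves out the wider spread of the hypoxic fetuses, the same difference had a limma p of 0.045.

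CRY1, a repressor of the CLOCK and BMAL1 pair, gave different answers at its 2 probes. At A_70_P002776 the log2 levels were -3.56, -3.13, -3.54 and -3.60 in hypoxia with ketamine, -3.07, -3.26, -3.45 and -3.12 in hypoxia with vehicle, -3.21, -3.23, -3.64 and -3.39 in normoxia with ketamine, and -3.72, -3.41 and -3.43 in normoxia with vehicle. At A_70_P002777 they were -4.42, -4.08, -4.08 and -4.87 in hypoxia with ketamine, -3.56, -4.99, -4.19 and -3.94 in hypoxia with vehicle, -3.60, -4.31, -3.71 and -3.90 in normoxia with ketamine, and -3.81, -3.62 and -3.83 in normoxia with vehicle. The groups overlapped at both probes in all 4 comparisons of 2 groups. With hypoxia in vehicle fetuses the first probe differed by 0.29 (SE 0.15, limma p of 0.0773) and the second by -0.41 (SE 0.29, limma p of 0.181). The first passed the threshold without hypoxic vehicle replicate 3 (0.37), and the second without hypoxic vehicle replicate 1 (-0.62). Those fetuses were singled out after the values were seen, so no change is read from the fits without them. Averaged over treatments, the second probe fell with hypoxia by 0.45 (SE 0.20, limma p of 0.0428, adjusted p = 0.229, exact permutation p of 0.0367), while the first differed by 0.10 (95% interval -0.12 to 0.33). That call was lost in 10 of the 15 fits that each left out 1 array. The values of the 2 CRY1 probes correlated over the 15 arrays with r = 0.13, where those of the 2 PER2 probes correlated with r = 0.86.

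PER2, the other repressor measured by name, passed the threshold in none of the 7 comparisons at either probe. At A_70_P026806 the log2 levels were -1.89, -1.92, -2.14 and -1.83 in hypoxia with ketamine, -1.97, -1.98, -1.88 and -2.72 in hypoxia with vehicle, -2.04, -2.18, -1.93 and -2.16 in normoxia with ketamine, and -2.13, -2.15 and -1.76 in normoxia with vehicle. One hypoxic vehicle fetus, replicate 4, was the lowest of all 15 at both probes, and the other fetuses lay within 0.42 of each other at this probe. With hypoxia the probe differed by 0.13 under ketamine (95% interval -0.24 to 0.50) and by -0.12 in vehicle fetuses (95% interval -0.52 to 0.28). At A_70_P026807 the levels ran from -1.89 to -1.80 in hypoxia with ketamine, from -2.24 to -1.73 in hypoxia with vehicle, from -2.04 to -1.79 in normoxia with ketamine and from -2.01 to -1.76 in normoxia with vehicle. The intervals of its 4 group differences all lay within -0.34 and 0.34.

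The 4 probes known as clock genes by description alone added BMAL1, the partner of CLOCK, PER3 and a PER2 probe from another record. BMAL1 had log2 levels of -0.71, -0.86, -1.44 and -1.16 in hypoxia with ketamine, -1.52, -1.42, -0.61 and -1.85 in hypoxia with vehicle, -1.03, -1.37, -1.07 and -1.01 in normoxia with ketamine, and -1.12, -1.08 and -1.21 in normoxia with vehicle. The groups overlapped, and BMAL1 passed the threshold in none of the 7 comparisons. Its difference with hypoxia was 0.08 under ketamine (95% interval -0.41 to 0.57) and -0.21 in vehicle fetuses (95% interval -0.74 to 0.31). Over all arrays BMAL1 under hypoxia differed with ketamine by 0.31 (limma p of 0.198, exact permutation p of 0.371). Without hypoxic vehicle replicate 3, its highest fetus, that difference was 0.56 (limma p of 0.008). The difference with hypoxia in vehicle fetuses was then -0.46 (limma p of 0.028), against a limma p of 0.398 over all arrays. That fetus was singled out after the values were seen, so no change in BMAL1 is read from the fits without it. The 2 PER3 probes, which share 59 of 60 bases, passed the threshold in none of the comparisons, and they were dim, with log2 levels between -6.51 and -5.27.

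The PER2 probe A_70_P024156 was dimmer still, at 10.3 to 29.6 units of processed signal and well above background on 14 of 15 arrays. Its log2 levels were -6.96, -5.99, -6.42 and -6.51 in hypoxia with ketamine and -5.77, -5.98, -6.03 and -5.40 in hypoxia with vehicle. Under hypoxia it fell with ketamine by 0.68 (SE 0.21, limma p of 0.0073, adjusted p = 0.80), with an exact permutation p of 0.0571. The named PER2 probes differed there by 0.19 and 0.04, neither past the threshold. The dim probe correlated with them with r = -0.53 and -0.31 over the 15 arrays, so the probes annotated as PER2 did not move together. With normexp the difference of the dim probe was 0.11 (limma p of 0.692).

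**Figure D3:**
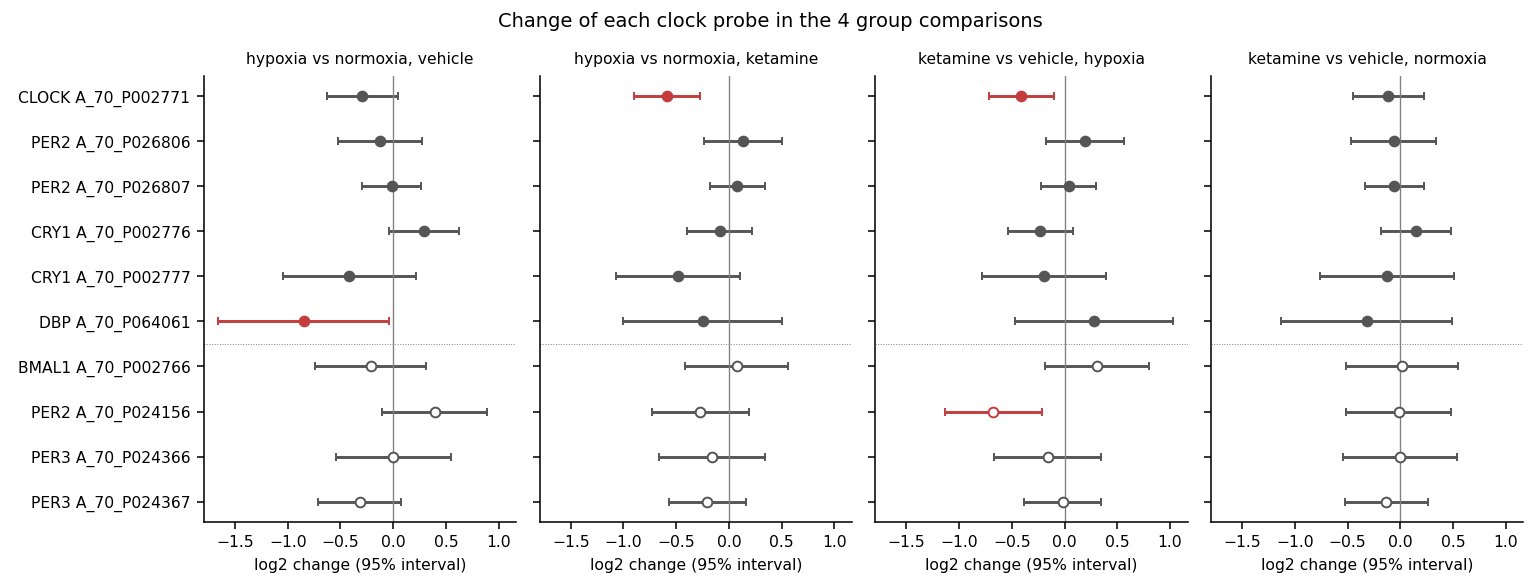
Log2 change with its 95% interval for each clock probe in the 4 comparisons of 2 groups, filled points for probes that carry the gene name and open points for those known by description, red where limma's unadjusted p is at most 0.05. CLOCK is red with hypoxia under ketamine (-0.59) and with ketamine under hypoxia (-0.41), as is the dim PER2 probe with ketamine under hypoxia (-0.68) and DBP with hypoxia in vehicle fetuses (-0.85), and no point is red with ketamine in normoxia.

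Counted over the 6 named clock probes, 1 fell and 0 rose with hypoxia in vehicle fetuses (DBP), where 16.1% of all probes passed the threshold and 10.4% fell. With hypoxia under ketamine 1 fell (CLOCK), where 8.67% of all probes passed and 4.97% fell, and with ketamine under hypoxia 1 fell (CLOCK), where 6.07% passed and 3.49% fell. With ketamine in normoxia 0 of 6 passed, where 2.71% of all probes did. For the average effect of hypoxia 2 fell (CLOCK and 1 CRY1 probe), where 20.3% passed and 12.5% fell. For that of ketamine 1 fell (CLOCK), where 4.78% passed and 2.93% fell, and in the interaction 0 passed, where 3.15% of all probes did. With 6 probes, each count is within 1 probe of what the share past the threshold in either direction gives. No clock probe passed an adjusted limma p of 0.05 in any comparison, and of all probes 0.0155% did with hypoxia in vehicle fetuses, 1.60% for the average effect of hypoxia and 0% in the other 5. The order of CLOCK under ketamine, with no overlap and hypoxia lower, was found for 3.69% of all probes, and that of DBP in vehicle fetuses for 9.59%. The median change of the 6 probes with hypoxia was -0.17 under ketamine and -0.21 in vehicle fetuses, against -0.02 and -0.05 over all probes tested. These 2 hypoxia comparisons share no fetus, whereas the comparisons with ketamine reuse the same fetuses.

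The clock probes followed each other unevenly from fetus to fetus. As a description over 15 arrays, which share slides and groups, CLOCK correlated with DBP with r = 0.19, with BMAL1 with r = -0.21, with the named PER2 probes with r = -0.08 and 0.03, and with the CRY1 probes with r = 0.16 and 0.66. With the PER3 probes CLOCK had r = 0.44 and 0.61, and with the dim PER2 probe r = 0.45. After each group's mean was taken off, the CRY1 value of 0.66 was 0.48, and the PER3 values were 0.50 and 0.51. The CRY1 probe A_70_P002776 correlated with the PER3 probes with r = 0.65 and 0.36, and with r = 0.74 for both once the group means were taken off. BMAL1 and the named PER2 probes correlated with r = 0.62 and 0.47.

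Of 643 other named genes well above background on all 15 arrays, 3 followed CLOCK with r above 0.8, and the median r was 0.02. UBQLN1, a ubiquitin-like adaptor that brings proteins to the proteasome, had r = 0.86 (Spearman's rho 0.83). SLC4A4, the sodium bicarbonate cotransporter of the proximal tubule, had r = 0.84 (rho 0.80). VEGFR-2, the endothelial receptor for vascular endothelial growth factor, had r = 0.82 (rho 0.79). Next came SLC9A3R1 (r = 0.77), a scaffold of the tubular brush border, SLC2A2 (r = 0.76), a glucose transporter, and ARNT (r = 0.74), the bHLH-PAS partner of the hypoxia-inducible factors. The most opposite were PUS1 (r = -0.76), TIMP2 (r = -0.73), B2M (r = -0.65) and FLT3LG (r = -0.64). In that order their rho was -0.72, -0.44, -0.77 and -0.72. With each group's mean taken off, their r was -0.41, -0.41, -0.35 and -0.21. It was -0.50, -0.18, -0.61 and -0.68 with normexp and outlying local backgrounds replaced. UBQLN1, SLC4A4, VEGFR-2 and SLC9A3R1 fell with hypoxia, by 0.52, 0.61, 0.50 and 0.59 under ketamine and by 0.56, 0.54, 0.46 and 0.62 in vehicle fetuses. They were picked for following CLOCK over all groups, and CLOCK was lower in hypoxia. Such falls are therefore partly built into the choice and are no separate result. VEGFR-2 fell with ketamine too, by 0.47 under hypoxia (limma p of 0.0092) and by 0.43 in normoxia (limma p of 0.0222). With each group's mean taken off, the r of UBQLN1 was 0.64, of SLC4A4 0.69, of VEGFR-2 0.47 and of SLC9A3R1 0.38. With normexp and outlying local backgrounds replaced, UBQLN1, SLC4A4 and VEGFR-2 had r of 0.68, 0.81 and 0.71. Without the 2 arrays farthest from the CLOCK median they had 0.82, 0.82 and 0.82. With normexp as usually run, SLC4A4 and ARNT, both dim, had r of 0.95 and 0.93. UBQLN1, VEGFR-2, SLC9A3R1 and SLC2A2 had 0.50, 0.81, 0.40 and 0.41 there.

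**Figure D4:**
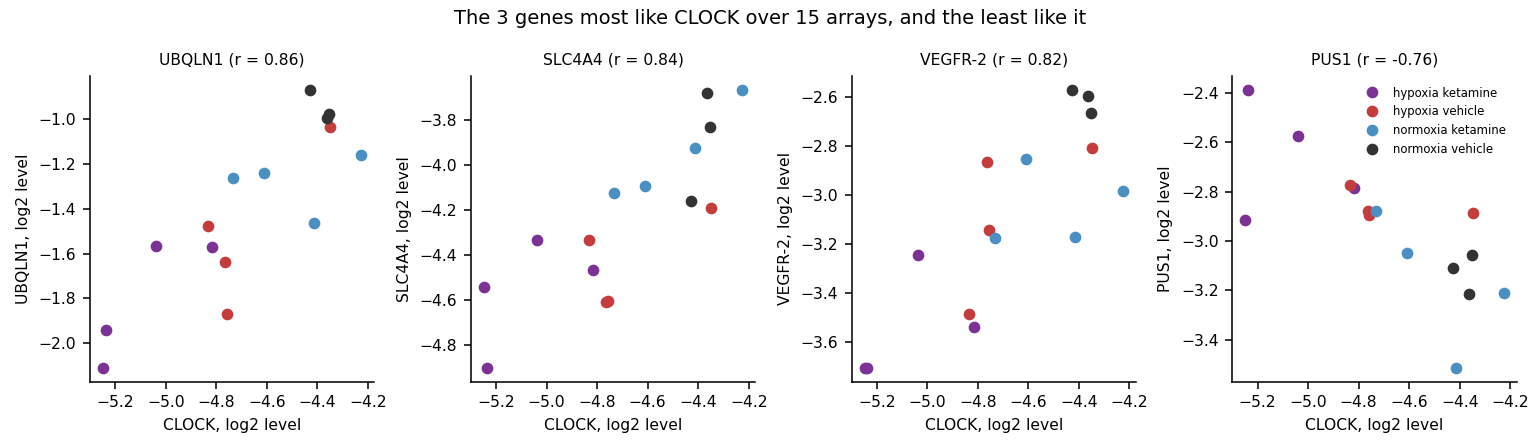
Log2 level of CLOCK against UBQLN1, SLC4A4, VEGFR-2 and PUS1, with 1 point per fetus coloured by group. The first 3 have r = 0.86, 0.84 and 0.82 over 15 arrays. For each of these 3 the lowest value is from a hypoxic ketamine fetus, and hypoxic vehicle fetuses overlap that group.

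Genes related to the clock by function, protein family, hormone or photoperiod signals or kidney timing were taken from 7 further lists, of which 31 genes were tested. Not all of them act within the clock. With hypoxia 1 rose and 2 fell under ketamine (9.68%, against 8.67% of all probes), and 4 rose and 2 fell in vehicle fetuses (19.4%, against 16.1%). The 4 include TSHR, which was not well above background on most of those arrays. With ketamine 0 rose and 3 fell under hypoxia (9.68%, against 6.07%), and none passed in normoxia (against 2.71%). Of the other clock components, BHLHE40, a repressor of E-box genes, and TIMELESS were on the array. BHLHE40 under hypoxia fell with ketamine by 1.36 (SE 0.60, limma p of 0.0389), with levels of -4.68 to -3.25 in hypoxia with ketamine and of -3.94 to -0.60 in hypoxia with vehicle. Without hypoxic vehicle replicate 1 that difference was -0.75 (limma p of 0.146), and the call was lost in 4 of the 15 fits that each left out 1 array and in 7 of 14 other settings. Of 4 kinases and turnover factors of clock proteins, PRKAA2, a catalytic subunit of the energy sensor AMPK, fell with hypoxia on average by 0.34 (limma p of 0.0196), and CSNK1D, CSNK1E and SKP1 passed in no comparison.

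CLOCK belongs to the bHLH-PAS family, of which 6 other members were tested. AHR, the receptor for aryl hydrocarbons, fell with hypoxia by 0.46 in vehicle fetuses (SE 0.15, limma p of 0.00946), with levels of -4.45 to -4.36 in hypoxia with vehicle and of -4.03 to -3.82 in normoxia with vehicle, and by 0.32 on average (limma p of 0.00836). HIF3A, a member of the hypoxia-inducible factor family, rose with hypoxia under ketamine by 0.54 (SE 0.23, limma p of 0.0331), and by 0.49 at its other probe. That call was lost in 3 of the 15 fits that each left out 1 array (0.38 to 0.65) and in 5 of 14 other settings. HIF1A, EPAS1, ARNT and ARNT2 did not pass the threshold in any comparison. Of the melatonin and photoperiod genes, AANAT passed in none, and TSHR, the thyrotropin receptor, was well above background on 1 of 4 arrays in hypoxia with vehicle and on 1 of 3 in normoxia with vehicle. Its fitted difference there was 1.20 (limma p of 0.0216), between values mostly not well above background, so no change in its level is read from it.

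Of 10 tested genes that the clock times in the adult kidney, AQP3, the basolateral water channel of the collecting duct, rose with hypoxia in vehicle fetuses by 0.73 (SE 0.22, limma p of 0.00463), and by 0.69 at its other probe. SLC9A3, the apical sodium-proton exchanger, rose there by 0.78 (limma p of 0.00546) and under hypoxia fell with ketamine by 0.70 (limma p of 0.00633). Its other probe differed by 0.20 and -0.54. SLC9A3 was dim, with levels of -6.41 to -5.60 in hypoxia with ketamine and of -5.70 to -4.77 in hypoxia with vehicle. In hypoxia with ketamine it was well above background on 3 of 4 arrays. The epithelial sodium channel subunits SCNN1A, SCNN1B and SCNN1G passed in no comparison. Of 6 genes of glucocorticoid signalling, NR3C1, the glucocorticoid receptor, fell with hypoxia by 0.38 under ketamine (limma p of 0.0401) and by 0.42 in vehicle fetuses (limma p of 0.0387). Leaving out 1 array in turn ended the call in 5 of 15 fits under ketamine (-0.48 to -0.26) and in 4 of 15 in vehicle fetuses (-0.52 to -0.34), and each was lost in 6 of 14 other settings. HSD11B1, which regenerates cortisol, fell with hypoxia under ketamine by 0.79 (limma p of 0.0364), a call lost in 4 of 15 such fits (-1.01 to -0.60) and in 2 of 14 other settings. NFKBIA, the inhibitor of NF-kappa B, rose with hypoxia in vehicle fetuses by 2.55 (SE 0.54, limma p of 0.000372) and under hypoxia fell with ketamine by 1.59 (limma p of 0.00708).

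**Figure D5:**
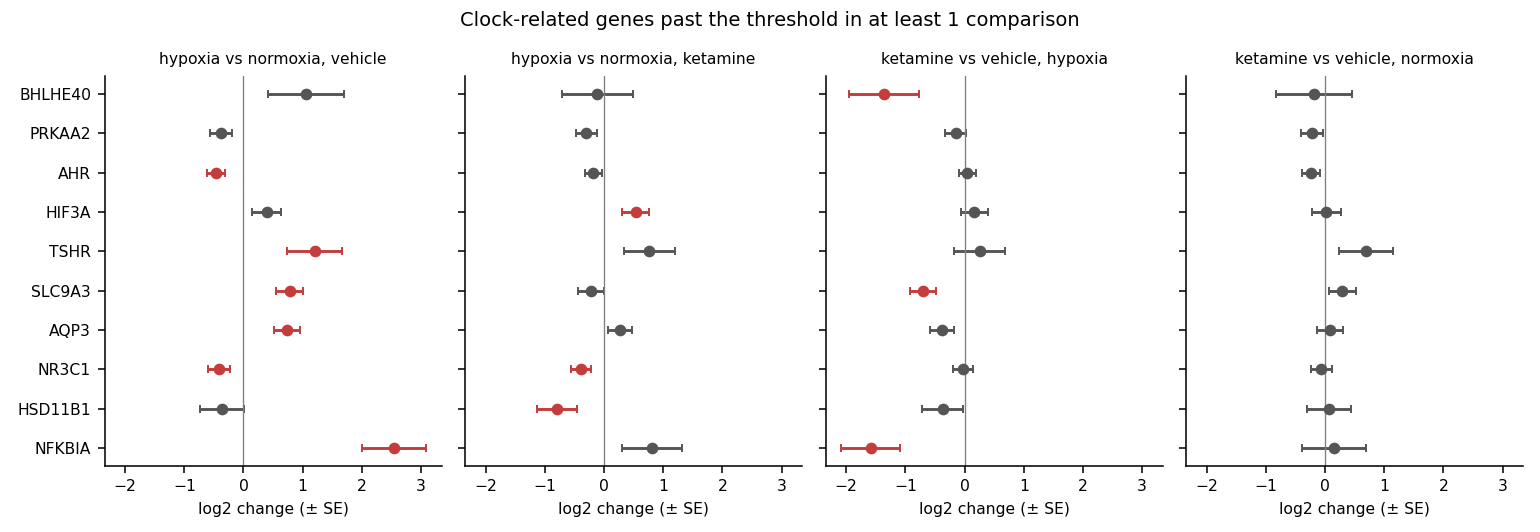
Log2 change ± SE in the 4 comparisons of 2 groups for the 10 genes of the related lists that passed the threshold in at least 1 of the 7 comparisons, red where limma's unadjusted p is at most 0.05. NFKBIA (2.55 with hypoxia in vehicle fetuses) has the largest change, and no gene is red with ketamine in normoxia.

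Markers of other cells moved with hypoxia beside these results. Of 6 monocyte and macrophage genes, 4 rose with hypoxia under ketamine, where 3.71% of all probes rose, and 5 in vehicle fetuses, where 5.77% did. Their summed signal, as a percentage of the array's 75th percentile, was 119 to 374 in hypoxia with ketamine and 133 to 393 in hypoxia with vehicle. It was 84.5 to 101 in normoxia with ketamine and 87.3 to 94.5 in normoxia with vehicle. In each group 5 of the 6 were well above background on every array. In each normoxic group 1 of the 6 was well above background on no array. Such a gene passes the filter on dim probes through hypoxic arrays, so counts that include it favour a rise. The 2 neutrophil genes (CATHL1B and CATHL3) summed to 215 to 5283, 117 to 8400, 52.0 to 189.0 and 136 to 539 in the same order of groups. Of 4 proximal tubule genes 1 (SLC4A4) fell with hypoxia in each treatment. Of all probes 4.97% fell under ketamine and 10.4% in vehicle fetuses, and with so few genes no shift of the list is read from this. The summed signal of the 4 genes overlapped between groups, at 780 to 1398, 763 to 1261, 1096 to 1414 and 775 to 1290. The part of these cells in the clock values was not tested. Placental lactogen was well above background on 3 arrays, hypoxia with ketamine replicate 2 and normoxia with ketamine replicates 1 and 2. Without these 3 arrays CLOCK under ketamine fell with hypoxia by 0.70.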

How the data were processed

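Cy3-labelled RNA from the kidney cortex of 15 sheep fetuses was hybridised to 15 Agilent ovine arrays, 1 per fetus. Per the file headers, Agilent Feature Extraction 10.1.1.1 subtracted the background from each spot's intensity and removed spatial trends, and it did not scale arrays against each other. The authors' deposited value table holds log2 values of 11705 probes. The submitters' processing notes name limma, with no version, and neither they nor the labels give the table's background correction or filter. With probes centred, 12 of its 15 columns correlated more closely with a different array of their group (r of 0.907 to 0.975) than with their own, and the table therefore served only as an alternative.

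Log2 processed intensity was taken relative to each array's 75th percentile, and outlier-flagged and control spots were left out. The 12927 probes well above background on at least 3 of 15 arrays were fitted in limma 3.58.1 (R 4.3.3), with 1 mean per group over all 15 arrays (11 residual degrees of freedom), two-sided tests, 7 comparisons and Benjamini-Hochberg adjustment over all probes. The script was tested on simulated data. Exact two-sided permutation tests over arrays (NumPy 2.4.6) were run for each clock probe. With 4 against 3 arrays these cannot go below 0.0571.

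The clock genes and the related lists were chosen with earlier results of these data known. Named are every probe carrying a clock gene name, the 6 genes most like CLOCK and the 4 most opposite by Pearson's r over 15 arrays, and every member of the related lists past the threshold in at least 1 comparison. For a listed gene with several probes the brightest was used. A change is the first group minus the second, on the log2 scale. Same-numbered fetuses were not taken as pairs: their deviations from the group means correlated with r from -0.29 to 0.37 over 21 pairs, and no label pairs them. Other background corrections, scalings, filters, the slide, array weights, the value table and leaving out each array were tried as alternatives.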

Additional observations from a re-analysis of the deposited data

Results flagged for a closer look

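Of 30 sets of values, each 1 of the 10 clock probes (6 named and 4 known by description) in 1 group of 4 fetuses, 3 held a fetus far from the other 3, and chance alone flags about 1 in 20. CLOCK in hypoxia with vehicle replicate 1 was at -4.35, the highest of its group, where the other 3 fetuses lay between -4.83 and -4.76. PER2 at A_70_P026806 in hypoxia with vehicle replicate 4 was at -2.72, the lowest, where the others lay between -1.98 and -1.88. CRY1 at A_70_P002776 in hypoxia with ketamine replicate 2 was at -3.13, the highest, where the others lay between -3.60 and -3.54. Under hypoxia this probe differed with ketamine by -0.23 over all arrays (limma p of 0.129) and by -0.34 without that fetus (limma p of 0.028). The fetus was singled out after the values were seen, so no fall is read from the second fit. The interaction passed the threshold for 2 of the 31 genes of the related lists (6.45%, against 3.15% of all probes). For SLC9A3 the interaction was -1.0 (limma p of 0.00803, adjusted p = 0.989), and 0.38 at its other probe. For NFKBIA it was -1.74 (limma p of 0.0340, adjusted p = 0.989), and that call was lost in 8 of the 15 fits that each left out 1 array.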

How the results depend on the processing

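The fall of CLOCK with hypoxia under ketamine (-0.59) kept its direction and its side of the threshold in all 15 fits that each left out 1 array (-0.68 to -0.50) and in every other setting tried except normexp (0.075, limma p of 0.759) and slide 2 alone (-0.66, limma p of 0.054, with 4 arrays). Its average fall with hypoxia (-0.44) ran from -0.50 to -0.40 without 1 array, with the call lost under normexp (-0.092), under normexp with outlying local backgrounds replaced (-0.16) and within slide 2 (-0.45). The fall with ketamine under hypoxia (-0.41) ran from -0.50 to -0.30 without 1 array, and the call was lost under normexp (0.12, the opposite direction), normexp with outlying local backgrounds replaced (-0.20), slide 1 (-0.27), slide 2 (-0.55) and the deposited value table (-0.15). The CLOCK difference with hypoxia in vehicle fetuses (-0.29) ran from -0.40 to -0.24 without 1 array, and was -0.23 in the value table and -0.078 (limma p of 0.530) under normexp with outlying local backgrounds replaced. The normexp offset of 50 units narrows CLOCK differences, so their sizes are not on the scale of the main values. The fall of DBP with hypoxia in vehicle fetuses (-0.85) ran from -1.03 to -0.71 and kept its direction throughout, with the call lost within slide 1 (-0.83), within slide 2 (-0.82), with array quality weights (-0.76) and with the replicate block (-0.81, limma p of 0.065). Its average difference with hypoxia (-0.55) ran from -0.74 to -0.40 and passed the threshold with quantile scaling (-0.55), median scaling (-0.55), the stricter filter on dim probes (-0.55) and the value table (-0.52).

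Of the 6 named clock probes, the number past the threshold with hypoxia in vehicle fetuses was 1, and 0 within slide 1, within slide 2, with array quality weights and with the replicate block, and 2 with the value table, on leaving out the 3 placental lactogen arrays and with outlying local backgrounds replaced (0 to 2 without 1 array). With hypoxia under ketamine it was 1, and 0 with normexp and within slide 2, and 2 with array quality weights and outlying local backgrounds replaced (1 to 2 without 1 array). With ketamine under hypoxia it was 1, and 0 with normexp, within slide 1, within slide 2, with the value table and with outlying local backgrounds replaced, and 2 on leaving out the 3 placental lactogen arrays (0 to 2 without 1 array). With ketamine in normoxia it was 0, and 1 with only those groups in the fit. For the average effect of hypoxia it was 2, and 0 with normexp and within slide 2, and 1 within slide 1, with the replicate block and with outlying local backgrounds replaced (1 to 3 without 1 array). For that of ketamine it was 1, and 0 with normexp, quantile scaling, median scaling, within slide 1, within slide 2, with the replicate block, the value table and outlying local backgrounds replaced (0 to 1 without 1 array). In the interaction it was 0, and 1 with the value table and with outlying local backgrounds replaced (0 to 1 without 1 array).

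Under normexp the direction also turned for the dim PER2 probe A_70_P024156 under hypoxia with ketamine (0.11), TSHR with hypoxia in vehicle fetuses (-0.057), SLC9A3 under hypoxia with ketamine (0.10) and in the interaction (0.28), and for the correlations with CLOCK of TIMP2 (0.51) and PUS1 (0.53). CLOCK, SLC9A3, the dim PER2 probe, the PER3 probes and TSHR lie near the background, which limits what these arrays can resolve. ARNT, HIF3A and SLC4A4 are dim too, with lowest log2 levels of -4.99, -5.59 and -4.90. On 2 arrays, hypoxia with ketamine replicate 3 and normoxia with vehicle replicate 2, outlying local backgrounds lifted CLOCK under normexp, and for the other changes the cause was not tested. The count of all probes past the threshold ran from 664 to 2453 with hypoxia in vehicle fetuses (2086), from 606 to 1796 under ketamine (1121), from 276 to 1606 with ketamine under hypoxia (785), from 113 to 1007 in normoxia (350), from 1086 to 2912 for the average effect of hypoxia (2623), from 263 to 1203 for that of ketamine (618) and from 198 to 986 in the interaction (407).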
